A study of Homo sapiens with 6 samples.

Results

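PC3 cells transfected with a scrambled siRNA, an siRNA with no intended target, were the control group of a study of VEGF-C, neuropilin-2 and autophagy. The members described here are the 2 arrays labelled as treated with scrambled siRNA, of 6 arrays in the series; the other 2 groups received siRNA pools against VEGF-C or against NRP-2 and are not compared here. PC3 is an established human prostate cancer line derived from a bone metastasis. In all groups the cells grew in RPMI medium with 10% fetal bovine serum, were transfected with DharmaFECT lipid reagents, and gave total RNA 72 h later, of which 6 µg went into each labelling. Each RNA was read on an Affymetrix HG-U133 Plus 2.0 array, and the values are log2 signals after GCRMA, a correction that estimates the background of each probe from its base sequence. The line is a single cell line without stroma, vessels or immune cells, every control sample had been through transfection, and untransfected cells were not analysed here. The labels do not say whether both arrays came from separate cultures, so the difference between them may be technical.

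The normal prostate gland holds secretory luminal cells, which make kallikrein proteases such as prostate-specific antigen under androgen control, above a layer of basal cells that carry a keratin pair of their own. Most prostate cancers resemble luminal cells. PC3 is widely used as a model of advanced disease that grows without androgens, and it is known in the literature for aggressive, invasive growth and for having lost several genes, among them the one for alpha-catenin.

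Each of 19775 genes was represented by its brightest probe set carrying 1 gene name, a probe set being the group of short probes that together read a transcript. A gene was called high at log2 10 or more on both arrays and near the floor below log2 4 on both. By these limits 4393 genes (22.2%) were high, 8554 (43.3%) were near the floor and 6828 (34.5%) lay between, and the median gene stood at 5.96. Signals ran from 0.85 to 16.25 on array 1 and from 0.87 to 16.19 on array 2. The arrays correlated across genes at a Pearson r of 0.998, a description only, since genes are not independent replicates. The absolute difference between arrays had a median of 0.11 among high genes (95th percentile 0.44), 0.17 among genes between the limits (0.82) and 0.03 near the floor (0.15). Those differences describe these 2 arrays and are not an error estimate for a given gene, and GCRMA compresses values near the floor. Each pair of values given here has array 1 first, all as log2 signals. Probe sets differ in how well they bind, so the brightness of different genes does not rank their transcript numbers, and a gene near the floor is not shown to be absent: 5595 such genes had 1 named probe set, and 148 had a brighter probe set shared with another gene. Of 3161 high genes with several probe sets, 1523 (48.2%) had at least 1 near the floor, and where another choice of probe sets would turn a named gene from high to near the floor, its other value is given beside it.

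**Figure D1:**
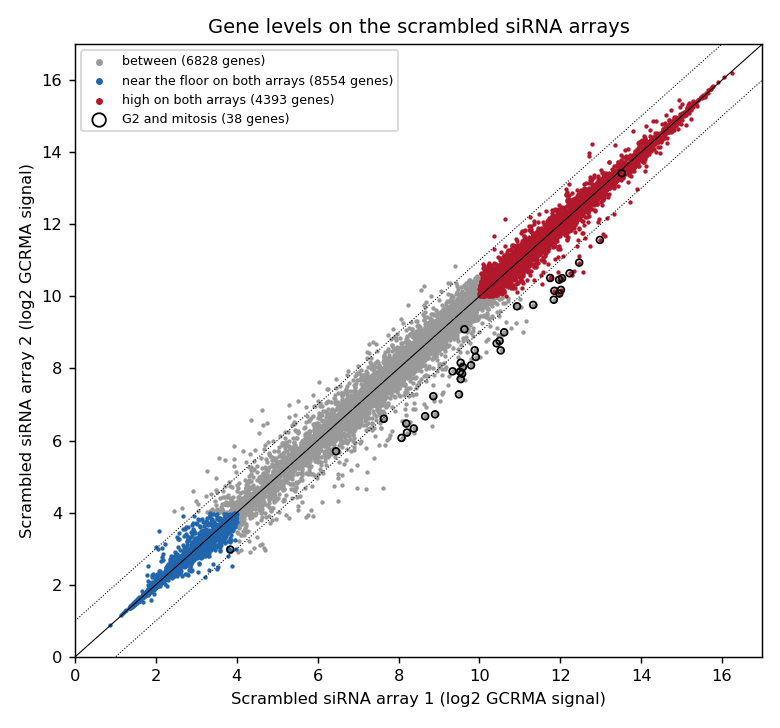
Log2 signal of each of 19775 genes on scrambled array 1 (horizontal axis) and scrambled array 2 (vertical axis). Genes lie along the line of equal signal, with differences of at least 2-fold in 268 of them.

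The brightest transcripts were those of protein synthesis and the actin skeleton. TMSB4X, which encodes the actin-binding peptide thymosin beta 4, was the brightest gene at 16.25 and 16.19, followed by the ribosomal protein genes RPS24 (16.05 and 16.09) and RPL37 (15.91 and 15.96). TPT1, a translationally controlled protein linked to growth, stood at 15.79 and 15.83, and EEF1A1, the factor that delivers aminoacyl-tRNA to the ribosome, at 15.75 and 15.80. Cytosolic ribosomal proteins filled 18 of the 25 brightest places and 41 of the brightest 100. Of 51 ribosomal protein genes with a named probe set, 49 were high (96.1%, against 22.2% of all genes), with a list median of 15.18. The exceptions were RPL27A (9.30 and 8.91) and RPLP2 (5.80 and 5.83). Some probe sets are marked as able to bind more than 1 transcript, of the same gene or of others (here called a cross-hybridisation mark). Without them, RPS27, RPLP1 and RPS6 would be near the floor, at 2.34, 1.73 and 2.33. A low value without marked probe sets does not show the brighter signal to be off target.

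Housekeeping programmes beyond the ribosome were bright as well. Translation factors were high in 12 of 13 genes, cytoskeletal genes in 19 of 21 and chaperones in 16 of 16. Glycolysis genes were high in 12 of 19, and 22.2% of all genes were high. The translation factor below the others was EIF4A2, an RNA helicase of initiation, at 3.05 and 3.02 on its own probe sets, and it is among the 148 genes with a brighter shared probe set. LDHA, which turns pyruvate into lactate, stood at 15.01 and 15.33, and PGK1, the ATP-forming phosphoglycerate kinase, at 14.94 and 15.45. GAPDH stood at 14.65 and 14.70. SLC2A1, the glucose transporter GLUT1, lay between the limits at 8.83 and 9.0, and SLC2A3, the transporter GLUT3, was near the floor at 3.04 and 2.99. The heat shock chaperone HSP90AA1 was at 15.14 and 15.21, and HSPA5, the main chaperone of the endoplasmic reticulum, at 14.37 and 14.41.

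Outside those housekeeping lists, and named after their values were seen, the brightest genes included several secreted and epithelial products. S100A6, a calcium-binding protein, stood at 15.54 and 15.59, and B2M, the shared light chain of class I HLA molecules, at 15.48 and 15.52. AGR2, a disulfide isomerase of mucus-secreting cells, reached 15.17 and 15.32. LGALS3, the lectin galectin-3, was at 15.17 and 15.31, MAL2, a protein of apical transport, at 15.16 and 15.27, and DKK1, a secreted WNT inhibitor, at 15.22 and 15.17. TCN1, a vitamin B12 carrier of secretions, gave 14.73 and 15.17. The transcript of the oxygen-regulated factor HIF1A stood at 14.98 and 14.96. HUWE1, a ubiquitin ligase, ranked among the brightest 25 at 15.35 and 15.33 through a probe set with a cross-hybridisation mark, whereas its brightest without one was near the floor at 2.82.

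Across the 39 gene lists, members ranged from nearly all high to all near the floor, as the plot of list levels shows. Chaperones and ribosomal proteins lay at the upper end. Markers of liver, blood, muscle and retina, leukocyte markers and cancer testis antigens lay at the lower end, with medians of 2.24, 2.42 and 2.52.

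**Figure D2:**
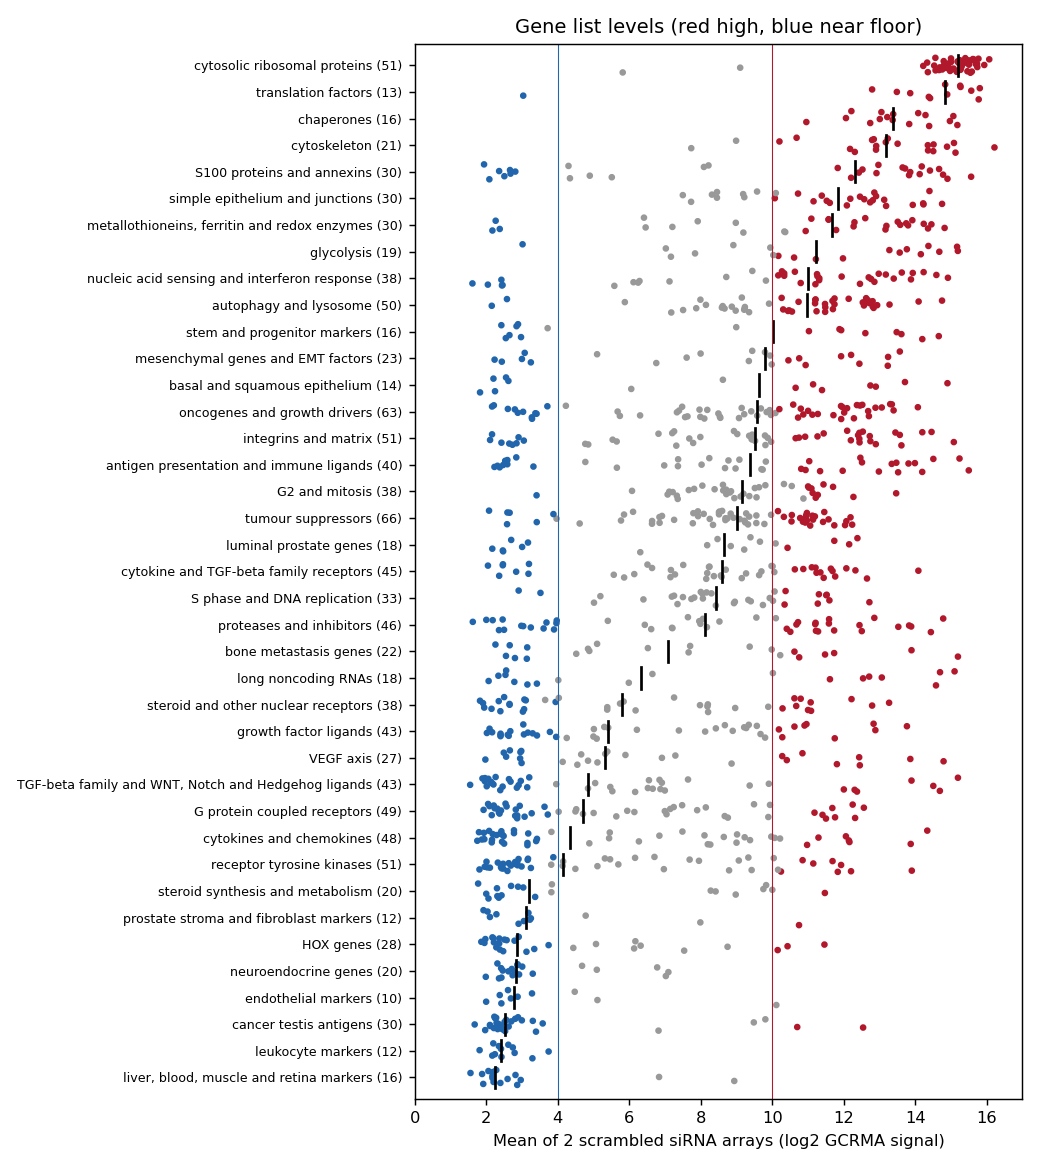
Mean log2 signal of the 2 scrambled arrays for every named member of each gene list, with the number of members in brackets; red points were high, blue points near the floor and grey points between, and the marker in each row is the list median. Medians run from 15.18 for cytosolic ribosomal proteins down to 2.24 for liver, blood, muscle and retina markers.

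Simple epithelial genes were bright. Of 30 genes of simple epithelium and cell junctions, 21 (70.0%, against 22.2% of all genes) were high and 0 near the floor (against 43.3%). The list median was 11.85. EPCAM, the epithelial adhesion molecule, stood at 14.71 and 14.79, and CDH1, which encodes E-cadherin, at 14.11 and 14.34, though a second probe set of CDH1 read 2.77. The keratins of simple epithelia were bright: KRT19 at 14.09 and 14.37, KRT18 at 13.89 and 13.97, KRT7 at 13.33 and 13.04, and KRT8 at 11.97 and 12.20. KRT7 read 1.52 on its brightest probe set without a cross-hybridisation mark. Tight junction genes were also high, with TJP1 (zonula occludens protein) at 13.24 and 13.02, OCLN (occludin) at 12.76 and 12.86 and CLDN1 (claudin-1) at 12.92 and 12.56. ESRP1, a splicing factor of epithelial cells, gave 12.79 and 13.02, and GRHL2, a transcription factor that maintains epithelia, 11.45 and 11.32. Arrays overlapped closely here, the differences within the list running from -0.35 to 0.56.

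The desmosome and adherens junction components were not all bright. JUP, which encodes plakoglobin, stood at 10.11 and 10.04, PKP3 at 9.17 and 9.27 and PKP2 at 8.47 and 8.44, the last pair being plakophilins. CTNNB1, the gene of beta-catenin, was high at 12.42 and 12.49. CTNNA1, which encodes the alpha-catenin that links cadherins to actin, was near the floor at 2.59 and 2.57, and all 5 of its probe sets were under log2 4.

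Luminal prostate genes stood at every level. Of 18 with a named probe set, 4 (22.2%) were high, the same share as among all genes, 6 (33.3%, against 43.3% of all genes) were near the floor and 8 lay between. The high genes were PMEPA1 (13.10 and 11.67), an inhibitor of TGF-beta signalling, the metalloreductase STEAP1 (11.90 and 12.40), the pioneer factor FOXA1 (11.66 and 11.81) and the prostate homeobox gene HOXB13 (10.21 and 10.64). PMEPA1 differed by more than 2-fold between the arrays. The ETS factor SPDEF (9.50 and 9.81), GATA2 (9.28 and 9.50) and the protease TMPRSS2 (9.18 and 9.25) lay between the limits, as did STEAP2 (9.92 and 10.27) and SLC45A3 (8.49 and 9.19). The 6 near the floor were TRPM8, a cation channel, at 3.22 and 3.11, ACP3, prostatic acid phosphatase, at 2.93 and 3.07, MSMB, a seminal plasma protein, at 2.70 and 2.69, KLK2 at 2.48 and 2.46, KLK4 at 2.49 and 2.43, and FOLH1, prostate-specific membrane antigen, at 2.17 and 2.17. KLK3, the gene of prostate-specific antigen, stood at 6.29 and 6.32 on its brightest probe set, while its other probe sets read 2.37 and 2.32.

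Of 14 basal and squamous genes, 7 were high (50.0%, against 22.2% of all genes), 5 near the floor (35.7%, against 43.3%) and 2 between. S100A2 (14.82 and 14.99), SFN, the 14-3-3 sigma protein (13.74 and 13.69), and the integrin chains ITGA6 (12.84 and 12.96) and ITGB4 (12.62 and 12.87) were high, but ITGB4 was near the floor, at 2.17, on its probe sets without a cross-hybridisation mark. KRT15 was high on both arrays with a wide gap, 10.64 and 12.14. The defining basal keratins KRT5 (1.84 and 1.81) and KRT14 (2.26 and 2.23) were near the floor, as were the desmoglein DSG3 and the nerve growth factor receptor NGFR.

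Mesenchymal genes were expressed beside the epithelial ones. Of 23, 9 were high (39.1%, against 22.2% of all genes), 5 near the floor (21.7%, against 43.3%) and 9 between. The median was 9.80. VIM, the intermediate filament vimentin, stood at 13.11 and 13.36, CDH2, which encodes N-cadherin, at 11.20 and 10.66, and CALD1, an actin-binding protein, at 13.15 and 13.34. COL6A1 (13.42 and 13.71) and FN1, fibronectin (12.39 and 12.48), were high on their brightest probe sets and near the floor, at 2.62 and 2.66, on probe sets without a cross-hybridisation mark. The transcription factors that repress epithelial genes did not form a uniform group. TWIST1 was high at 10.51 and 10.39, SNAI2 lay at 9.62 and 9.07 and ZEB1 at 6.89 and 6.62, while ZEB2 (3.29 and 3.21), SNAI1 (2.43 and 2.43) and TWIST2 (2.24 and 2.22) were near the floor.

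Neuroendocrine genes were mostly dim. Of 20, 0 were high (against 22.2% of all genes), 15 near the floor (75.0%, against 43.3%) and 5 between. The median was 2.84. The granule protein CHGA stood at 2.37 and 2.34, the synaptic vesicle protein SYP at 1.99 and 1.98 and NCAM1 at 2.79 and 2.68. The members between the limits were SCG5 (7.59 and 6.60), FOXA2 (7.06 and 6.50), ENO2 (6.72 and 7.33), POU3F2 (4.67 and 4.69) and the peptide gene NTS, neurotensin (4.46 and 5.72). For FOXA2 the mean over its probe sets was near the floor.

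Stem and progenitor markers were high in 8 of 16 genes (50.0%, against 22.2% of all genes) and near the floor in 6 (37.5%, against 43.3%). ALDH1A3, a retinaldehyde dehydrogenase, stood at 14.69 and 14.63, CD44, the hyaluronan receptor, at 14.20 and 14.20, SOX4 at 13.51 and 13.45 and SOX9 at 12.58 and 12.63. The other high members were ITGA2, MYC, LGR4 (11.86 and 11.91) and the reprogramming factor KLF4 (10.77 and 11.28). LGR4 read 2.37 on its brightest probe set without a cross-hybridisation mark. Near the floor were ALDH1A1 (3.04 and 2.90), the prostate stem cell antigen PSCA (2.81 and 2.97), NANOG (2.79 and 2.90) and PROM1, the CD133 antigen (2.56 and 2.53).

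**Figure D3:**
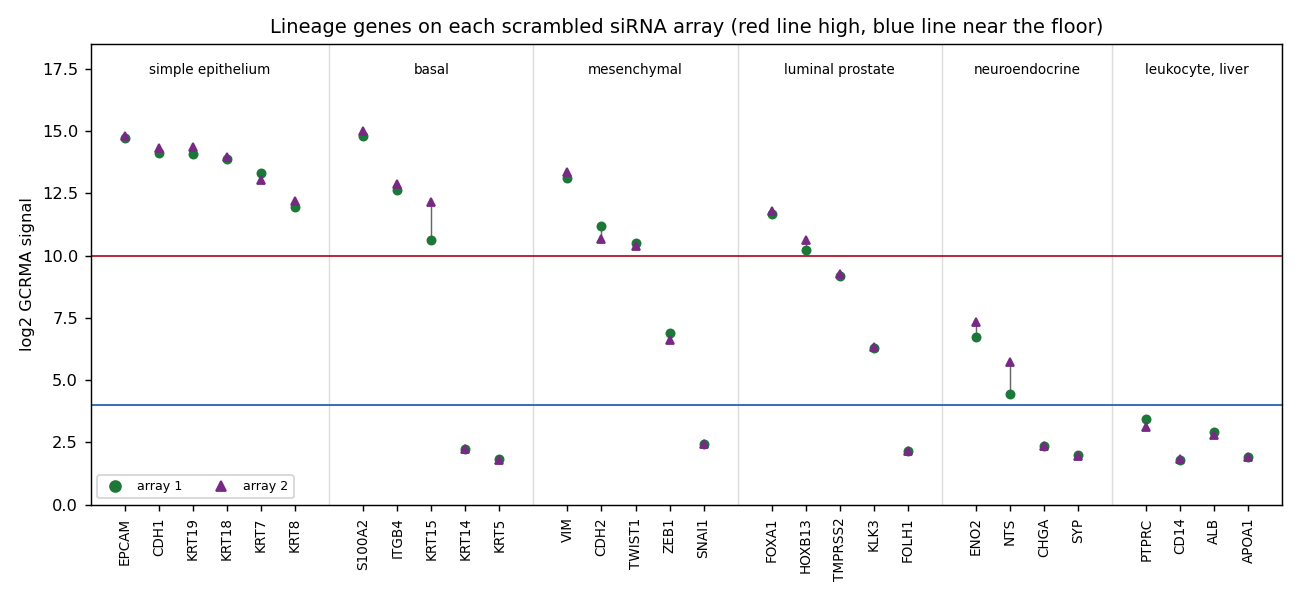
Log2 signal on array 1 (circles) and array 2 (triangles) for lineage genes grouped by cell type, with the high limit in red and the near-floor limit in blue. EPCAM, CDH1 and the simple keratins lie above the high limit, KRT5, KRT14, CHGA and SYP lie below the near-floor limit.

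HOX genes, which carry positional identity along the body axis, were dim apart from a few. Of 28 with a named probe set, 3 were high (10.7%, against 22.2% of all genes), 18 near the floor (64.3%, against 43.3%) and 7 between. HOXC6 stood at 11.52 and 11.40, HOXB13 at 10.21 and 10.64 and HOXB3 at 10.03 and 10.27. HOXB9 lay at 8.88 and 8.61 and HOXB2 at 7.45 and 7.63. The named members of the HOXD cluster were near the floor, from HOXD13 at 2.98 and 2.84 to HOXD9 at 1.98 and 1.97.

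Interferon-stimulated genes were among the brightest groups outside housekeeping. Interferons are antiviral cytokines, and cells that sense foreign nucleic acid or bind an interferon switch on a common set of genes through the factor complex ISGF3. Of 38 genes of nucleic acid sensing and interferon response, 25 (65.8%, against 22.2% of all genes) were high and 5 (13.2%, against 43.3%) near the floor. The median was 11, and the number high was 16 when the probe sets of each gene were averaged. ISG15, a ubiquitin-like modifier, stood at 14.86 and 14.97, IFI6 at 14.54 and 14.64, the membrane protein IFITM3 at 14.18 and 14.29, IFIT1, which binds foreign RNA, at 13.69 and 14.08, IFIT3 at 13.31 and 13.49 and the antiviral GTPase MX1 at 12.56 and 12.84. Array 2 read higher in 32 of the 38 genes, with a list median difference of 0.20 and at most 0.76, and none of them reached 2-fold. The share of all genes that read higher on array 2 was not counted.

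The promoters of the 4 genes below are shown because they are among the brightest of the list and each carries the core of the interferon-stimulated response element, the DNA element that ISGF3 binds. Sequences are from RefSeq (GRCh38.p14), 250 bases before to 50 after the gene's start, in the direction of transcription, with capitals marking every match to the motif searched, which is GAAA, any 2 bases and GAAA again, or its complement on the other strand (TTTC, any 2 bases, TTTC). ISG15 lies at chr1:1013247-1013546 on the + strand, IFI6 at chr1:27672143-27672442 on the - strand, IFIT1 at chr10:89392373-89392672 on the + strand and IFIT3 at chr10:89327747-89328046 on the + strand.
ISG15: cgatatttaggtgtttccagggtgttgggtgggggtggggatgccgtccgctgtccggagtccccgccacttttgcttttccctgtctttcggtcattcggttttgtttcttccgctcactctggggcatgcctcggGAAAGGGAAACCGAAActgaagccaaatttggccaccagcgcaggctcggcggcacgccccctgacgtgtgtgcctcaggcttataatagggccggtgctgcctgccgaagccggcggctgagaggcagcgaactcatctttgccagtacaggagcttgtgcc
IFI6: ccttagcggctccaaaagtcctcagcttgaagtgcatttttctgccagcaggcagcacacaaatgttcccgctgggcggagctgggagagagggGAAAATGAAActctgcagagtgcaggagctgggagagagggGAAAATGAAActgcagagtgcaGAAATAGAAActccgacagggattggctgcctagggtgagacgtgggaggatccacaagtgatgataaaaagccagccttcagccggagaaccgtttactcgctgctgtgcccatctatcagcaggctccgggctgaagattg
IFIT1: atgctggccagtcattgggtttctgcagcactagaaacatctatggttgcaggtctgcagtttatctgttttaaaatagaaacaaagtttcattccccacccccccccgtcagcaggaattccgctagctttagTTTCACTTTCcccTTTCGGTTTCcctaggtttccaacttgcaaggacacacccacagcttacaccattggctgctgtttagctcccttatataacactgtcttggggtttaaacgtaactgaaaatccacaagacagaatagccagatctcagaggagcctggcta
IFIT3: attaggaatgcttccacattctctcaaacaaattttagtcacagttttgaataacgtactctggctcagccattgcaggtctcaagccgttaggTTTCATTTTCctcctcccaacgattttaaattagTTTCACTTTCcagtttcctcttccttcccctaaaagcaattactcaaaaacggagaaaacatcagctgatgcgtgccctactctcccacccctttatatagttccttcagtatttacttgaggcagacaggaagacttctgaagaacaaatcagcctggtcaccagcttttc

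In ISG15 the matches began 113 and 107 bases before the start and shared bases with each other. IFI6 had 3 matches, beginning 156, 115 and 93 bases before the start. In IFIT1 they began 116 and 103 bases before the start and in IFIT3 156 and 122, in both genes on the other strand. Of 27305 RefSeq promoters of the same length, 3.65% held the motif. The genes shown were chosen for carrying it, so this share is no comparison for them. Other high genes of the list held no match in this window, among them RIGI and OAS1, and others did, among them IFITM3. Only 26 of the 38 listed genes (68.4%) had a promoter in the table, fewer than the 80% needed, so a count of the motif over the list is void and none is given. A match describes the letters in this window and does not show a bound site.

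Sensors ranged from high to near the floor, and the interferon genes measured were near the floor. The cytosolic RNA sensors IFIH1 (12.18 and 12.73) and RIGI (11.11 and 11.31), their adaptor MAVS (10.75 and 10.84) and EIF2AK2, the kinase PKR (12.71 and 13.01), were high. CGAS, the cytosolic DNA sensor, stood at 6.13 and 6.11, its adaptor STING1 at 6.12 and 6.38 and the endosomal RNA sensor TLR3 at 5.41 and 5.75. TLR7 (2.46 and 2.41), TLR8 (2.48 and 2.43), TLR9 (2.04 and 2.04) and DHX58 (1.60 and 1.63) were near the floor. The interferon gene IFNB1 read 2.45 and 2.40 and IFNG 2.09 and 2.07. The receptor chains IFNGR1 (11.08 and 11.39) and IFNGR2 (11.14 and 11.55) were high, and IFNAR1 (9.20 and 9.34) and IFNAR2 (8.20 and 8.16) lay between, but IFNGR1 read 3.16 on its brightest probe set without a cross-hybridisation mark. All these cells had received an siRNA and a lipid reagent, and the part of transfection in these levels was not tested.

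**Figure D4:**
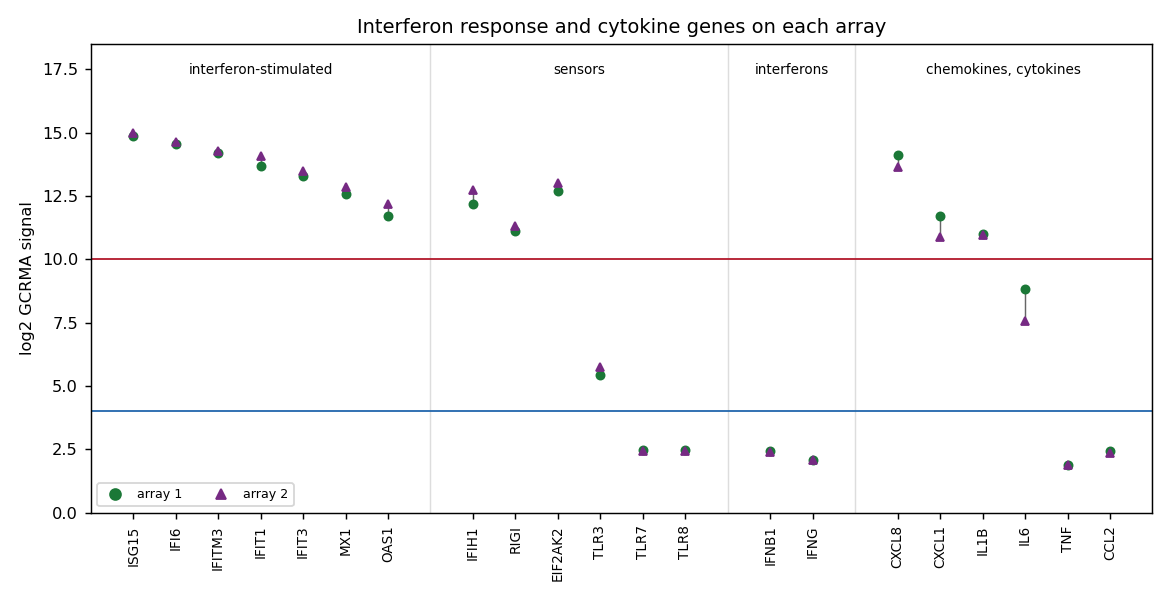
Log2 signal on array 1 (circles) and array 2 (triangles) for interferon-stimulated genes, nucleic acid sensors, interferons and inflammatory cytokines; red and blue lines mark the high and near-floor limits. ISG15, IFI6 and IFIT1 lie above 13 on both arrays, IFNB1, IFNG and TNF below 3.

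Antigen presentation genes followed the class I side. B2M, HLA-C (14.10 and 14.29), HLA-B (13.41 and 13.64) and HLA-E (12.87 and 13.10) were high, and so was the peptide transporter TAP1 (10.88 and 10.98). HLA genes are close relatives of each other, so their probe sets may share signal. The class II chain HLA-DRA (2.25 and 2.21), its partner CD74 (2.32 and 2.30) and their activator CIITA (2.41 and 2.34) were near the floor. CD274, which encodes the checkpoint ligand PD-L1, lay at 7.17 and 6.78, and CD47, a signal against phagocytosis, at 13.28 and 13.40. Of the 40 genes of this list, 17 were high (42.5%, against 22.2% of all genes) and 9 near the floor (22.5%, against 43.3%).

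Few receptor tyrosine kinases were bright. Of 51, 8 were high (15.7%, against 22.2% of all genes), 24 near the floor (47.1%, against 43.3%) and 19 between. The median was 4.14. MET, the receptor of hepatocyte growth factor, was the brightest at 13.93 and 13.88. AXL (12.20 and 11.65), ERBB3 (11.99 and 12.42), EGFR (11.77 and 11.89), RYK (11.61 and 11.77), ROR1 (10.99 and 11.31), EPHA2 (10.85 ± 0.21, SD, n = 2) and ERBB2 (10.14 and 10.35) made up the rest. Just under the limit stood EPHB4 (10.12 and 9.96), the insulin receptor INSR (9.97 and 10.36) and IGF1R (9.59 and 9.26). Near the floor were KIT (2.03 and 2.02), FLT3 (1.97 and 1.94), RET (2.33 and 2.31), ERBB4 (2.63 and 2.56) and both PDGF receptors, PDGFRA (3.29 and 3.21) and PDGFRB (2.10 and 2.10).

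Growth factor ligands were high in 9 of 43 genes (20.9%) and near the floor in 16 (37.2%), close to the 22.2% and 43.3% of all genes. The EGF receptor ligands TGFA (11.78 and 11.72) and BTC, betacellulin (10.41 and 10.15), were high, HBEGF stood at 10.19 and 9.41, and EGF itself at 5.08 and 5.10. HGF, the ligand of MET, was near the floor at 3.44 and 3.40. PDGFC, a ligand of the PDGF receptors that were dim, stood at 12.89 and 12.88, and KITLG, the ligand of KIT, at 10.19 and 10.18. CCN1, a matricellular protein, was the brightest of the list at 13.93 and 13.61. IGF1 was near the floor at 2.62 and 2.58.

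The genes the study set out to deplete were at unlike levels. VEGFC stood at 11.81 and 11.80 and VEGFA at 12.50 and 12.40. NRP1, neuropilin-1, a co-receptor of VEGF family and semaphorin ligands, was high at 14.69 and 14.89, and its relative NRP2 lay at 4.77 and 4.92, with 10 of its 11 probe sets near the floor. The VEGF receptor kinases were dim: KDR at 5.09 and 5.13, FLT4 at 4.11 and 4.16 and FLT1 at 2.99 and 2.98. Semaphorin genes ranged from SEMA3C, at 13.86 and 13.87, to SEMA3B, at 2.0 and 1.95. Of the 27 genes of this axis, 8 were high and 8 near the floor (29.6% each, against 22.2% and 43.3% of all genes), and the arrays differed by 0.43 at most.

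Cytokine and TGF-beta family receptors were high in 14 of 45 genes (31.1%, against 22.2% of all genes) and near the floor in 7 (15.6%, against 43.3%). TNFRSF21, a death receptor, stood at 14.11 and 14.07, IL6ST, the shared gp130 chain of the interleukin-6 family, at 12.71 and 12.59, TGFBR2 at 12.18 and 11.97 and TGFBR1 at 11.70 and 11.59, the last at 2.61 without marked probe sets. IL6R, the specific chain for interleukin-6, lay at 7.94 and 8.37. TNFRSF11A, which encodes RANK, the receptor that drives osteoclast formation, was high at 10.87 ± 0.19 (SD, n = 2). FAS stood at 7.23 and 7.10.

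G protein coupled receptors were high in 8 of 49 genes (16.3%, against 22.2% of all genes) and near the floor in 21 (42.9%, against 43.3%), so their share near the floor was that of any gene. GPRC5A (12.97 and 12.16), the lysophosphatidic acid receptors LPAR1 (12.34 and 12.29) and LPAR3 (11.44 and 12.07), the WNT receptor FZD6 (12.22 and 12.28), the thrombin receptor F2R (11.52 and 11.48), the adenosine receptor ADORA2B (11.41 and 11.40) and the prostaglandin receptor PTGER4 (11.22 and 11.14) were high; F2R read 2.64 without marked probe sets. CXCR4, a chemokine receptor of homing cells, lay at 4.29 and 4.75, and SMO, the Hedgehog signal transducer, was near the floor at 1.89 and 2.21.

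Among nuclear receptors, 10 of 38 were high (26.3%) and 14 near the floor (36.8%), near the 22.2% and 43.3% of all genes. NR2F1, the orphan receptor COUP-TF1, stood at 13.36 and 13.18, PPARG, a fatty acid receptor, at 12.71 and 12.88, NR1D2, a receptor of the circadian clock, at 12.22 and 12.22, and the vitamin D receptor VDR at 11.15 and 10.85. NR3C1, the glucocorticoid receptor, was at 11.15 and 11.02 on its brightest probe set and at 3.41 on the brightest without a cross-hybridisation mark. ESR1 lay at 7.99 and 8.42, while ESR2 (3.08 and 2.97) and the progesterone receptor PGR (2.41 and 2.38) were near the floor. Of 20 steroid synthesis genes, 1 was high (5%, against 22.2% of all genes) and 11 were near the floor (55%, against 43.3%). HSD17B4, an enzyme of peroxisomal fatty acid breakdown, was the high member at 11.43 and 11.51. AKR1C3, which makes testosterone from its precursor, stood at 10.00 and 10.01 by rounding, with array 1 just below the limit, and SRD5A1, a steroid reductase, at 9.69 and 9.81. The other reductase SRD5A2 (2.32 and 2.28) and CYP17A1 (3.39 and 3.35), the enzyme that opens the androgen pathway, were near the floor.

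Secreted developmental signals included some of the brightest transcripts of the cells. DKK1 stood at 15.22 and 15.17, FST, the activin trap follistatin, at 14.63 and 14.38, and JAG1, a Notch ligand, at 14.07 and 13.72. GDF15, a stress-induced cytokine, was at 14.77 and 14.61 on its brightest probe set and near the floor, at 1.75, on the brightest without a cross-hybridisation mark. TGFB2 (12.69 and 12.06) and the activin subunits INHBA (12.33 and 12.28) and INHBB (11.95 and 12.06) were high, whereas TGFB1 lay at 6.15 and 6.18. WNT5A stood at 9.92 and 9.89. The Hedgehog ligands SHH (2.07 and 2.04), DHH (1.97 and 1.95) and IHH (1.91 and 1.88) were near the floor, as were 20 of the 43 genes of this list (46.5%, against 43.3% of all genes).

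Of 48 cytokines and chemokines, 7 were high (14.6%, against 22.2% of all genes) and 23 near the floor (47.9%, against 43.3%). MIF, macrophage migration inhibitory factor, stood at 14.30 and 14.37 and CXCL8, the neutrophil attractant interleukin-8, at 14.12 and 13.62. IL18 (12.57 and 11.75), CXCL6 (12.16 and 11.96), IL33 (11.96 and 12.32), CXCL1 (11.69 and 10.89) and IL1B (11.01 and 10.95) completed the high group. IL6 lay at 8.84 and 7.55, a gap of more than 2-fold. Near the floor were TNF (1.89 and 1.87), CCL2 (2.42 and 2.36), CXCL12 (2.31 and 2.26) and IL10 (2.52 and 2.47).

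Genes linked to bone metastasis, the site the line came from, were high in 6 of 22 (27.3%, against 22.2% of all genes). They were near the floor in 6 (27.3%, against 43.3%). Beside DKK1 and JAG1, RUNX2, the osteoblast transcription factor, stood at 11.48 and 11.47, though the mean over its probe sets was near the floor at 3.71. MMP1, an interstitial collagenase, was at 11.26 and 12.20. TNFRSF11B, osteoprotegerin, lay at 9.98 and 10.47, and TNFSF11, which encodes the RANK ligand, was near the floor at 2.59 and 2.51. The bone matrix genes SPP1 (2.90 and 3.37) and IBSP (2.82 and 2.78) were near the floor.

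Among proteases, PLAU, urokinase, stood at 14.63 and 14.25, its receptor PLAUR at 10.57 and 10.45 and tissue plasminogen activator PLAT at 11.60 and 10.97. ADAM9 (13.87 and 13.78) and ADAM10 (12.46 and 12.42) were high, and so were the inhibitors TIMP2 (13.97 and 13.80), TIMP1 (13.46 and 13.59) and CSTB (14.68 and 14.89). The gelatinase MMP2 was near the floor at 2.39 and 2.32, MMP9 lay at 6.79 and 6.44, and HPN, the membrane protease hepsin, read 1.61 and 1.63. In the list of 46, 19 (41.3%) were high and 14 (30.4%) near the floor, against 22.2% and 43.3% of all genes.

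Integrins and matrix genes were high in 21 of 51 (41.2%, against 22.2% of all genes) and near the floor in 8 (15.7%, against 43.3%). ITGB1, the common beta chain, stood at 15.06 and 15.10, and at 2.92 on its brightest probe set without a cross-hybridisation mark. Its partners ITGA2 (13.64 and 13.59), ITGA6 (12.84 and 12.96) and ITGAV (12.48 and 12.40) were high, ITGA3 lay at 9.90 and 9.71, and ITGA4 was near the floor at 2.76 and 2.70. CD9, a tetraspanin, gave 14.39 and 14.52, and THBS1, thrombospondin-1, 13.90 and 12.99. The chains of fibrillar type I collagen differed, COL1A1 standing at 10.73 and 10.77 and COL1A2 at 2.93 and 2.87.

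Most tumour suppressor genes with a named probe set were above the floor. Of 66, 23 were high (34.8%, against 22.2% of all genes), 37 between and 6 near the floor (9.09%, against 43.3%). The median was 9.0. The inhibitors of cyclin-dependent kinases CDKN1B (12.33 and 12.14), CDKN2B (12.06 and 12.02) and CDKN2A (11.70 and 11.78) were high, as was RB1, the pocket protein they act through, at 11.13 and 10.99. A second probe set of RB1 read 2.75, and the others of CDKN2A read 10.24 and 2.60. CDKN1A stood at 8.87 and 7.81, a gap of more than 2-fold. SMARCA4, a chromatin remodelling ATPase, was at 12.31 and 12.07 on its brightest probe set and at 2.21 on the brightest without a cross-hybridisation mark. GSTP1, a detoxifying enzyme that is silenced in most prostate cancers, stood at 11.64 and 11.51, and SPOP, a ubiquitin ligase adaptor often mutated in that disease, at 11.25 and 11.14.

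The 6 near the floor were SUFU (3.86 and 3.89), NF1 (3.48 and 3.34), PTPRD (2.67 and 2.64), TP73 (2.60 and 2.58), CTNNA1 and ZBTB16 (2.08 and 2.08). SUFU restrains Hedgehog signalling, NF1 is a brake on RAS, PTPRD is a receptor phosphatase and ZBTB16 is a zinc finger repressor. NF1 is among the genes with a brighter shared probe set.

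Growth-promoting genes were high in 26 of 63 (41.3%, against 22.2% of all genes) and near the floor in 11 (17.5%, against 43.3%). WWTR1, which encodes TAZ, stood at 14.03 and 14.12 and its relative YAP1 at 12.93 and 13.20, both co-activators of the Hippo pathway. YES1, a SRC family kinase, was at 13.50 and 13.29, CCND1, cyclin D1, at 12.76 and 12.64, MYC at 11.95 and 11.91 and HMGA2, a chromatin protein of embryonic cells, at 12.45 and 12.59. Among ETS factors, ETS1 (12.23 and 11.95) and ETV1 (11.66 and 12.37) were high, and ERG was near the floor at 2.94 and 2.82. The other probe sets of ETV1 read 5.25, 3.97, 3.59 and 3.09. STAT3, a signal transducer below gp130, was near the floor at 2.82 and 2.77 on all 4 of its probe sets, while its receptor chain IL6ST was high. BCL2, an inhibitor of apoptosis, lay at 5.71 and 5.64, its relative BCL2L1 at 9.53 and 9.29 and MCL1 at 12.65 and 12.71. TERT, the catalytic subunit of telomerase, read 2.21 and 2.21.

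Autophagy and lysosome genes, the process named in the study's title, were high in 31 of 50 (62.0%, against 22.2% of all genes). They were near the floor in 2 (4%, against 43.3%). The lysosomal membrane proteins CD63 (14.72 and 14.78), LAMP1 (14.10 and 14.09) and LAMP2 (12.84 and 12.78) were bright. GABARAPL2 (13.27 and 13.30), GABARAP (12.97 and 12.90) and MAP1LC3B (12.66 and 12.47), the ubiquitin-like proteins coupled to autophagosome membranes, were high, as was the cargo receptor SQSTM1, known as p62, at 11.71 and 11.77. BECN1, part of the lipid kinase complex that starts the autophagosome, stood at 11.36 and 11.12, or 3.05 without marked probe sets, and ULK1, the initiating kinase, at 7.27 and 7.08. The 2 near the floor were MAP1LC3A (2.13 and 2.18) and HEXA (2.61 and 2.55), a subunit of lysosomal hexosaminidase, on all 4 of its probe sets. TFEB, a regulator of lysosomal genes, lay at 5.80 and 5.96 and its relative TFE3 at 11.06 and 10.41.

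Families of calcium-binding and redox proteins were bright in part. S100 proteins and annexins were high in 17 of 30 (56.7%, against 22.2% of all genes). Among them were S100A10 (14.92 and 14.64), S100P (14.36 and 14.47) and ANXA2 (14.72 and 14.61), which was at 3.55 on its brightest probe set without a cross-hybridisation mark. S100A8, the usual partner of S100A9, stood at 3.93 and 5.86 while S100A9 stood at 13.60 and 14.06. Metallothionein, ferritin and redox genes were high in 19 of 30 (63.3%, against the same 22.2%). TFRC, the transferrin receptor, stood at 14.79 and 14.86 and PRDX2, a peroxide-reducing enzyme, at 14.54 and 14.36. Cancer testis antigens were near the floor in 25 of 30 (83.3%, against 43.3% of all genes). The list was drawn widely and included the MAGE relatives MAGED1 (12.46 and 12.63) and MAGED2 (10.73 and 10.66), its only high members. The other exceptions were SPA17 (9.81 and 9.80), PRAME (9.48 and 9.49) and MAGEA6 (6.76 and 6.87).

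Long noncoding RNAs with a named probe set were high in 7 of 18 and near the floor in 7 (38.9% each, against 22.2% and 43.3% of all genes). NORAD, which binds Pumilio proteins, stood at 15.11 and 15.09, ZFAS1 at 14.58 and 14.81 and MALAT1, a nuclear RNA, at 14.29 and 14.87. The prostate cancer marker PCA3 was near the floor at 2.83 and 2.74.

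Markers of other cell types were checked over whole lists, beside the 43.3% of all genes that were near the floor. All 12 leukocyte markers were near the floor, with PTPRC, the common leukocyte antigen CD45, at 3.44 and 3.14. Of 12 stromal markers 9 were near the floor, including DCN (3.11 and 2.99) and THY1 (1.94 and 1.90), and COL1A1 was high. Of 10 endothelial markers 7 were near the floor, with the defining genes VWF at 2.0 and 1.99 and CDH5 at 2.43 and 2.41. PECAM1, the adhesion molecule CD31, was an exception at 9.39 and 10.84. Of 16 markers of liver, blood, muscle and retina 14 were near the floor, with ALB at 2.91 and 2.82, and the others were SERPINA1 (8.72 and 9.15), the antitrypsin gene, and TNNI3 (6.69 and 6.97), a troponin. Set against its label as a prostate cancer line, the sample held the simple epithelial markers EPCAM, KRT8 and KRT18 at high levels, while its 18 luminal prostate genes were spread from FOXA1, STEAP1, HOXB13 and PMEPA1, which were high, to 6 near the floor, among them KLK2 and FOLH1.

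The arrays of this group were not interchangeable for the cell cycle. Over all genes 268 (1.36%) differed by at least 2-fold, 181 (0.915%) of them lower on array 2 and 87 (0.44%) higher. Of 38 genes of G2 and mitosis, 38 read lower on array 2 and 34 did so by at least 2-fold, with a median difference of -1.61. MKI67, the proliferation antigen Ki-67, stood at 8.38 on array 1 and 6.33 on array 2. CDK1, the mitotic kinase, gave 12.98 and 11.56, CCNB1, cyclin B1, 11.97 and 10.46, TOP2A, a topoisomerase of dividing cells, 11.84 and 9.91, and TPX2, a spindle assembly factor, 10.53 and 8.50. The widest gaps among genes with a mean of at least log2 6 were those of IQGAP3 (7.61 and 4.68), a scaffold of proliferating cells, SPC25 (8.83 and 6.41), a kinetochore protein, and the kinesin KIF2C (9.49 and 7.28). BUB3, a spindle checkpoint protein, differed least of the list, at 13.52 and 13.41, and read 2.86 on its brightest probe set without a cross-hybridisation mark. PLK1, a mitotic kinase, had 1 named probe set near the floor (3.84 and 2.97) although its partners in mitosis were above it.

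Replication genes stood closer on both arrays. Over 33 genes of S phase and DNA replication the median difference was -0.29. Of these, 5 read lower on array 2 by at least 2-fold, against 0.915% of all genes, and 0 read higher by as much. RRM2, a subunit of ribonucleotide reductase, stood at 12.33 and 10.72, TYMS, thymidylate synthase, at 11.95 and 10.66 and TK1, thymidine kinase, at 8.88 and 7.22. PCNA, the sliding clamp of DNA polymerase, stood at 12.71 and 12.72, and the helicase subunit MCM6 at 11.20 and 11.35. In bulk RNA, fewer cells in a phase and less RNA per cell cannot be told apart.

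The 10 widest gaps in the other direction belonged to genes of unlike function. NOX5, an NADPH oxidase, stood at 12.78 and 14.22, KRT15 at 10.64 and 12.14, KRT20, an intestinal keratin, at 8.23 and 9.76, TFF2, a trefoil peptide of mucus, at 8.56 and 10.17, and PECAM1 at 9.39 and 10.84. The others were SLAMF9 (5.30 and 6.98), GOLGA8A (8.63 and 10.29), CAPN8 (5.50 and 7.10), FTX (6.04 and 7.61) and the mitochondrial gene ND6 (7.27 and 8.69). A measure of RNA quality also differed: the probe set at the 3′ end of ACTB exceeded that at its 5′ end by 3.11 on array 1 and by 2.05 on array 2, while the same gap for GAPDH was -0.0009 and -0.08. The part of RNA quality in these differences was not tested. No difference between the arrays has a replicate check, since each is 1 array against 1.

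**Figure D5:**
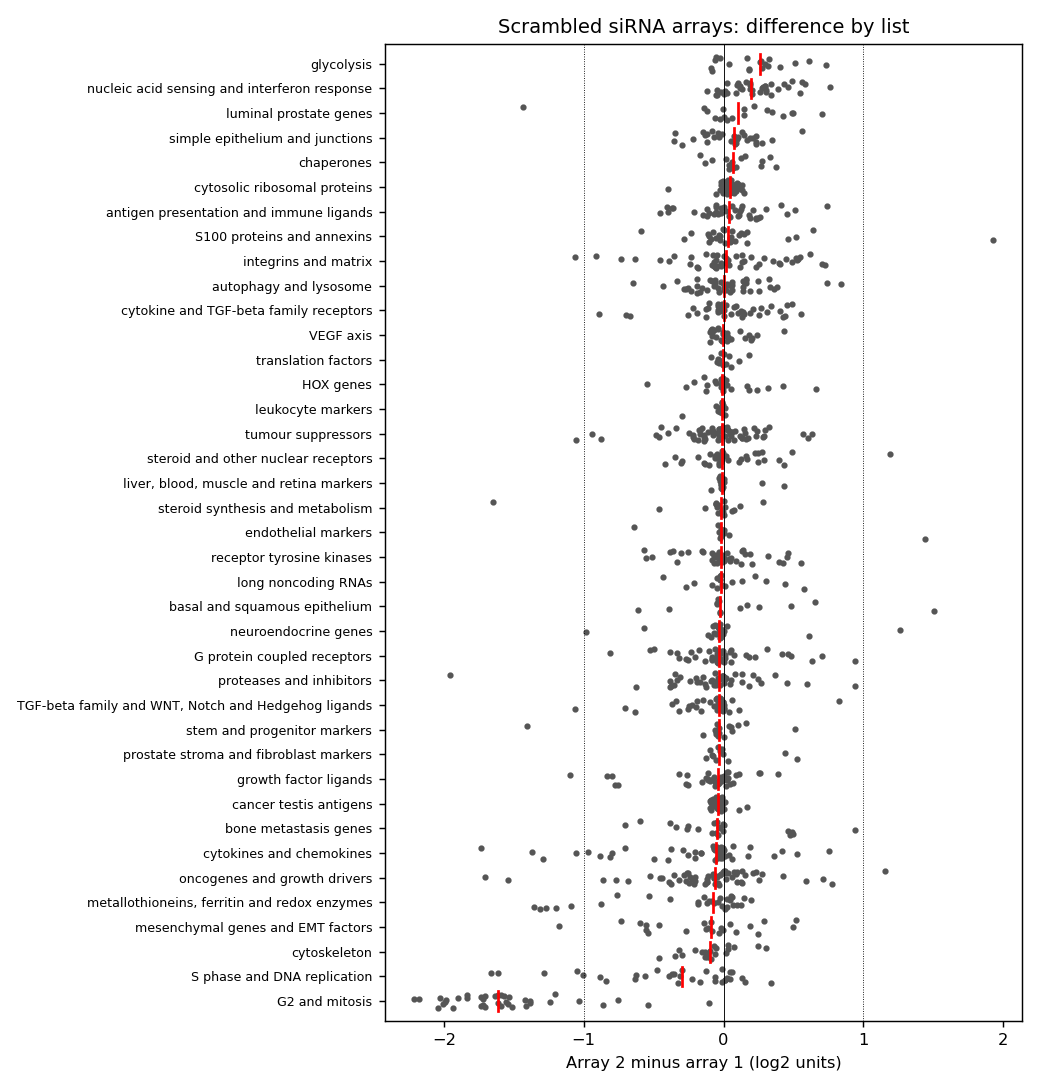
Difference between the scrambled arrays (array 2 minus array 1, log2 units) for every named member of each gene list; each point is a gene, red marks are list medians and dotted lines mark 2-fold. The G2 and mitosis list stands at the bottom with a median of -1.61, while the other medians lie between -0.29 and 0.26.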

How the data were processed

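The 2 arrays labelled scrambled siRNA were read from a table of 6. The deposited values are log2 signals of probe sets, for which the submitters' processing notes list the tools Partek and GCRMA, versions not given in the sources used here. The second of these normalizes the arrays to each other and compresses dim values. No depth applies to arrays, and 2 arrays limit the precision. Of 54675 probe sets, 62 were controls, 41091 carried 1 gene in the platform annotation, 1801 several and 11721 none named. A gene took its brightest probe set with 1 gene over both arrays (Python 3.11.15, pandas 2.3.3). With 1 group, no test was made and no p-value is given. The code for the calls was run on simulated levels set away from the limits. That run checks the code and not the calls for genes near a limit.

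The 39 lists hold 1340 genes, 1183 with a named probe set and 157 not reported here. Members and lists were chosen with earlier results of these data known. The rule named the 25 brightest genes, the 4 brightest of each list, up to 4 members near the floor in lists of lineage, receptor, ligand or tumour genes, a few fixed genes and the 10 widest differences in each direction at a mean of at least log2 6. Further list members were named after their values were seen. Alternatives were averaged or unmarked probe sets, other limits, other scalings and each array alone.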

Additional observations from a re-analysis of the deposited data

How the results depend on the processing

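The limits set the count of high genes. Against 4393, it was 2854 with the limit at log2 11, 1874 for genes in the top 10% of both arrays, 2052 with all probe sets of a gene averaged and 2738 of 16788 genes with probe sets free of a cross-hybridisation suffix. The counts near the floor and past 2-fold moved by less than 1.5 times under every alternative run, and with either array left out 4559 to 4570 genes were high and 8638 to 8648 near the floor. Unmarked probe sets turned 303 of 16788 genes, and averaging 10 of 19775, from high to near the floor, and 0 the other way. Of 78 list counts, averaging moved 29 by more than 1.5 times, unmarked probe sets 28 and equalising the medians or quantile normalization 0. Those scalings could change little, because GCRMA had already normalized the arrays to each other. Of 39 counts of high members, the top 10% limit moved 21, the log2 11 limit 11 and the log2 9 limit 8. Of 39 counts near the floor, a limit of log2 3 moved 10 and of log2 5 moved 0. Averaging moved the levels of 178 of 289 genes named by the rule by more than their SD. Of genes named as lying between the limits, averaging put ESR1 (3.14), KLK3 (3.66), NRP2 (2.71), FLT4 (2.71), CXCR4 (3.15), BCL2 (3.39), FOXA2 (3.64), POU3F2 (3.76) and IQGAP3 (3.16) near the floor, and unmarked probe sets did so for SLC2A1 (2.31), RPLP2 (2.72), FAS (2.15), TGFB1 (2.56), CGAS (2.67), SERPINA1 (2.41), S100A8 (2.92), CXCL2 (3.33), CXCL5 (3.11), MT1G (2.40) and IQGAP3 (2.27). No paired analysis was possible because there was 1 group and no comparison to test. Signals near the floor cannot tell an absent transcript from a dim probe set.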

Other observations

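Some further genes that read higher on array 2 were picked out for that difference, so they describe no group. TFF1, a trefoil peptide, stood at 10.37 on array 1 and 11.67 on array 2, CEACAM5, the carcinoembryonic antigen, at 12.72 and 13.98, MUC5B, a gel-forming mucin, at 5.87 and 7.28, and MUC5AC, a gastric mucin, at 5.91 and 6.95. Hypoxia-regulated NDRG1 stood at 12.72 and 13.88, and BNIP3, a mitophagy receptor, at 12.15 and 12.98.

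Of the 30 metallothionein, ferritin and redox genes, 5 read lower on array 2 by at least 2-fold, against 0.915% of all genes. All of them were metallothioneins, which bind zinc and copper. MT2A stood at 13.71 and 12.62, MT1X at 12.46 and 11.11, MT1H at 11.54 and 10.34, MT1F at 11.02 and 9.71 and MT1G at 10.97 and 9.70, while MT1E stood at 9.19 and 9.20. Because these genes are close copies, their probe sets may share signal. Of 48 cytokines and chemokines, 4 were lower on array 2 by as much, again against 0.915% of all genes. They were IL6 at 8.84 and 7.55, CXCL5 at 10.66 and 9.29, CXCL2 at 9.76 and 8.70 and CCL26 at 4.69 and 2.95. These are differences between 1 array and another, with no replicate check.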
